A study of Mus musculus with 16 samples.

Results

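Chemokines are small secreted proteins that bind to matrix and draw leukocytes along a gradient through G protein-coupled receptors. In bone marrow, stromal cells and osteoblast lineage cells make several of them, and these signals keep, release or gather blood cells in the marrow niche. Atypical receptors take the proteins up without the usual signalling and so limit their range. The genes described here are 10 chemokine ligands of marrow stroma, chosen by symbol: Cxcl13, Ccl19, Cxcl1, Cxcl5, Cxcl10, Cxcl14, Cxcl16, Ccl2, Ccl7 and Ccl11. Of these, 9 were measured among 20056 gene symbols. Expression of Ccl19, which attracts cells bearing Ccr7, was not analysed here, and only its sequence was searched.

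Poly(A) RNA was sequenced from sorted marrow cells labelled mesenchymal stem cells (MSC) or osteoblasts (OB), taken from mice made deficient in miR-9-1 by CRISPR/Cas9 and from wild-type mice. The 16 libraries formed 4 groups of 4, namely deficient OB, wild-type OB, deficient MSC and wild-type MSC. The 4 deficient mice are called E to H here and the 4 wild-type mice A to D, and each animal number is on 1 library of either sort. By its design text, the work concerned miR-9-1 in the marrow niche of lymphocyte formation. The labels give no strain, founder line, sex, age or sort gate.

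OB libraries held 15543693 to 18962771 reads and MSC libraries 10148197 to 14246986, as recovered from the normalized counts. The labels and the RNA did not match in 2 respects. First, 12 osteoblast markers had a mean log2 level of 7.71 to 9.94 in deficient OB against 10.004 to 11.1 in deficient MSC, and of 10.2 to 10.9 in wild-type OB against 11.7 to 11.8 in wild-type MSC. Blood progenitor markers went the other way, at 10.1 to 10.5 over all OB libraries and 7.82 to 8.38 over all MSC libraries, so the cells labelled osteoblasts are called OB libraries here. Second, the female transcript Xist stood at 3720 to 8053 and the male transcript Ddx3y at 649 to 1939 normalized counts in every OB library. MSC libraries carried mainly Ddx3y in mice A, E and F and mainly Xist in the other 5, so an OB library held RNA of both sexes where the MSC library of the same animal number was mainly of one sex. An OB library therefore cannot be taken as the RNA of 1 mouse, and pooling and numbers not shared between the sorts cannot be told apart. Letters on OB libraries stand for the animal number on the label. The targeted gene, Mir9-1, had 0 reads in every MSC library. In OB libraries it had 7, 16, 0 and 4 reads in wild-type A to D and 0, 3, 0 and 0 in deficient E to H. Poly(A) reads this few could not check the deletion.

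The deleted gene encodes a hairpin with a mature miRNA on either arm, shown here with their matches in the chemokine transcripts. They are given from RefSeq on GRCm38.p6, at chr3:88215613-88215635 (5p) and chr3:88215652-88215673 (3p) on the plus strand, with the seed (bases 2 to 8) in capitals.
miR-9-5p: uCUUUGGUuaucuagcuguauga
miR-9-3p: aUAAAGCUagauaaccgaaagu
Matches of 7 or 8 bases to the miR-9-5p seed were found in 0 of the 10 chemokine 3′ UTRs. Among mouse 3′ UTRs within 20% of each one's length, 3.94% to 22.1% held one, so 0 of 10 is no result about these genes. For miR-9-3p, 1 of the 10, Cxcl14, held a 7-base match, against 4.02% to 18.1% of UTRs of like length. Cxcl13, with a 3′ UTR of 800 bases, had no match of 6 or more bases to either seed. Matches of 6 bases to the miR-9-5p seed, CCAAAG, were found 3 times, once in Cxcl10 (chr5:92347420-92347448, minus strand) and at 2 places in Cxcl14 (chr13:56289054-56289082 and chr13:56288929-56288957, minus strand). They are shown with the match in capitals.
Cxcl10 site: tctttgggttcCCAAAGtgaaagcagagt
Cxcl14 first site: ttctgaggcatCCAAAGtccccagcagtg
Cxcl14 second site: gctccccccccCCAAAGctttgtttcttt
A match is a description of letters and no measure of binding. Neither Cxcl10 nor Cxcl14 passed the test of genotype in MSC or OB libraries.

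In MSC, the question was which of these ligands differed with loss of miR-9-1. Only Cxcl13 passed the test, which was limma on log2(normalized count + 1) with Benjamini-Hochberg adjustment over all genes and a threshold of 0.05. All 9 measured ligands were tested, of which 1 was higher, 0 lower and 8 did not pass. Over all 14964 genes tested, 1.06% passed, 0.501% being higher in deficient MSC. Of the 9 log2 fold changes, 5 were positive and 4 negative, with a median of 0.20, against -0.03 over all genes. The positive ones include Cxcl13, which was admitted to the test only through its deficient libraries. The signs and the median are therefore no result about the set. An unadjusted p under 0.05 was reached by 5 ligands, Cxcl13 among them. Counts of unadjusted p-values, here and below, come without the share of all genes at that level. They are therefore no result about a set of genes. These are bulk libraries, in which fewer cells of a type and less RNA per cell cannot be told apart.

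Cxcl13 (chr5:95956951-95961068, plus strand, 4 exons) encodes the attractant of B cells and follicular T cells that acts through Cxcr5 and organises lymphoid follicles. It had 337, 43.8, 83.7 and 361 normalized counts in the deficient MSC libraries of mice E, F, G and H, against 0 in every wild-type MSC library. Mice E and H were high, F and G several-fold lower, and the groups did not overlap. Over all genes tested, 12.4% had groups without overlap, 6.3% higher and 6.1% lower in deficient MSC. The deficient values rest on 287, 34, 64 and 247 reads, and a count of 0 in a wild-type MSC library allows up to 3 reads. The deficient mean of 206 ± 166 (SD, n = 4) was at least 49.7-fold higher than 4.15 normalized counts, the mean of that limit over the wild-type MSC libraries. On the log2(value + 1) scale the fold change was 7.20 ± 0.86 (SE, limma adjusted p = 0.0167).

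The filter on low values asked for a normalized count of 10 in 4 libraries of the comparison, and Cxcl13 met it only through the deficient ones. A gene admitted in that way had to differ, so its call is a description of these libraries. The call was lost on leaving out 1 of several libraries: the limma adjusted p was 0.0739 without wild-type mouse B and 0.0593 without wild-type mouse D. With the filter lowered to 3 libraries, it was 0.0582 without deficient mouse E, 0.0709 without G, 0.0683 without H and 0.00124 without F. Among libraries with mainly Ddx3y, E and F had 337 and 43.8 against 0 in A, and among those with mainly Xist, G and H had 83.7 and 361 against 0 in B, C and D. With 1 wild-type library of the first kind, the part of sex was not tested.

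Markers of other cell types were also compared between the genotypes in MSC. Skeletal muscle markers had a mean log2 level of 3.44, 4.03, 5.55 and 7.55 in deficient mice E, F, G and H. Wild-type mice had 2.85 to 4.64, a range that held E and F. Summed levels were 419 to 5580 in deficient and 297 to 597 in wild-type mice. Of 9 muscle markers tested in limma, 0 were higher and 0 lower. Of the 12 muscle genes, Myh4 was at 0 in all 4 wild-type MSC libraries. In deficient mice E, F, G and H, Cxcl13 stood at 337, 43.8, 83.7 and 361 normalized counts. B lineage markers had mean log2 levels of 3.62 to 4.55 in deficient and 5.75 to 6.69 in wild-type MSC. Of 10 tested, 3 were lower and none higher. Their summed levels overlapped, at 2116 to 3603 in deficient and 2804 to 3509 in wild-type MSC. The pre-B receptor gene Vpreb1 was at 0 in all 4 deficient MSC libraries. Osteoblast markers had mean log2 levels of 10.004 to 11.1 in deficient and 11.7 to 11.8 in wild-type MSC, without overlap, with 2 of 12 tested lower, 0 higher and none at 0 in any library. The part of these markers in the Cxcl13 level was not tested.

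The Cxcl13 promoter is printed because Cxcl13 had reads in every library of one MSC genotype and none in the other. It runs from 250 bases before to 50 after the RefSeq start site (GRCm38.p6, chr5:95956689-95956988, plus strand), with the TATA box in capitals.
Cxcl13 promoter: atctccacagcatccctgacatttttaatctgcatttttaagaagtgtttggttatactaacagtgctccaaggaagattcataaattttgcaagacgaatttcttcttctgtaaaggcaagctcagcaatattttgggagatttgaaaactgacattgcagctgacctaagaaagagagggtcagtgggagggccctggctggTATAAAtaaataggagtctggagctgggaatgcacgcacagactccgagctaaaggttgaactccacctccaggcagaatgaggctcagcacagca
Promoters were at hand for 5 of the 10 ligands and were searched on both strands for 6 motifs: TATAAA, the interferon-stimulated element GAAANNGAAA, the AP-1 site (TGACTCA or TGAGTCA), the C/EBP site TTGCNNAA, the glucocorticoid half-site TGTTCT, and the NF-kB site. The Cxcl13 window held TATAAA from -46 to -41, a motif in 13.6% of 32851 promoters, and a C/EBP match from -164 to -157 on the opposite strand, found in 10.8%. It held no letters matching the NF-kB, interferon-stimulated or AP-1 motifs.

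**Figure D1:**
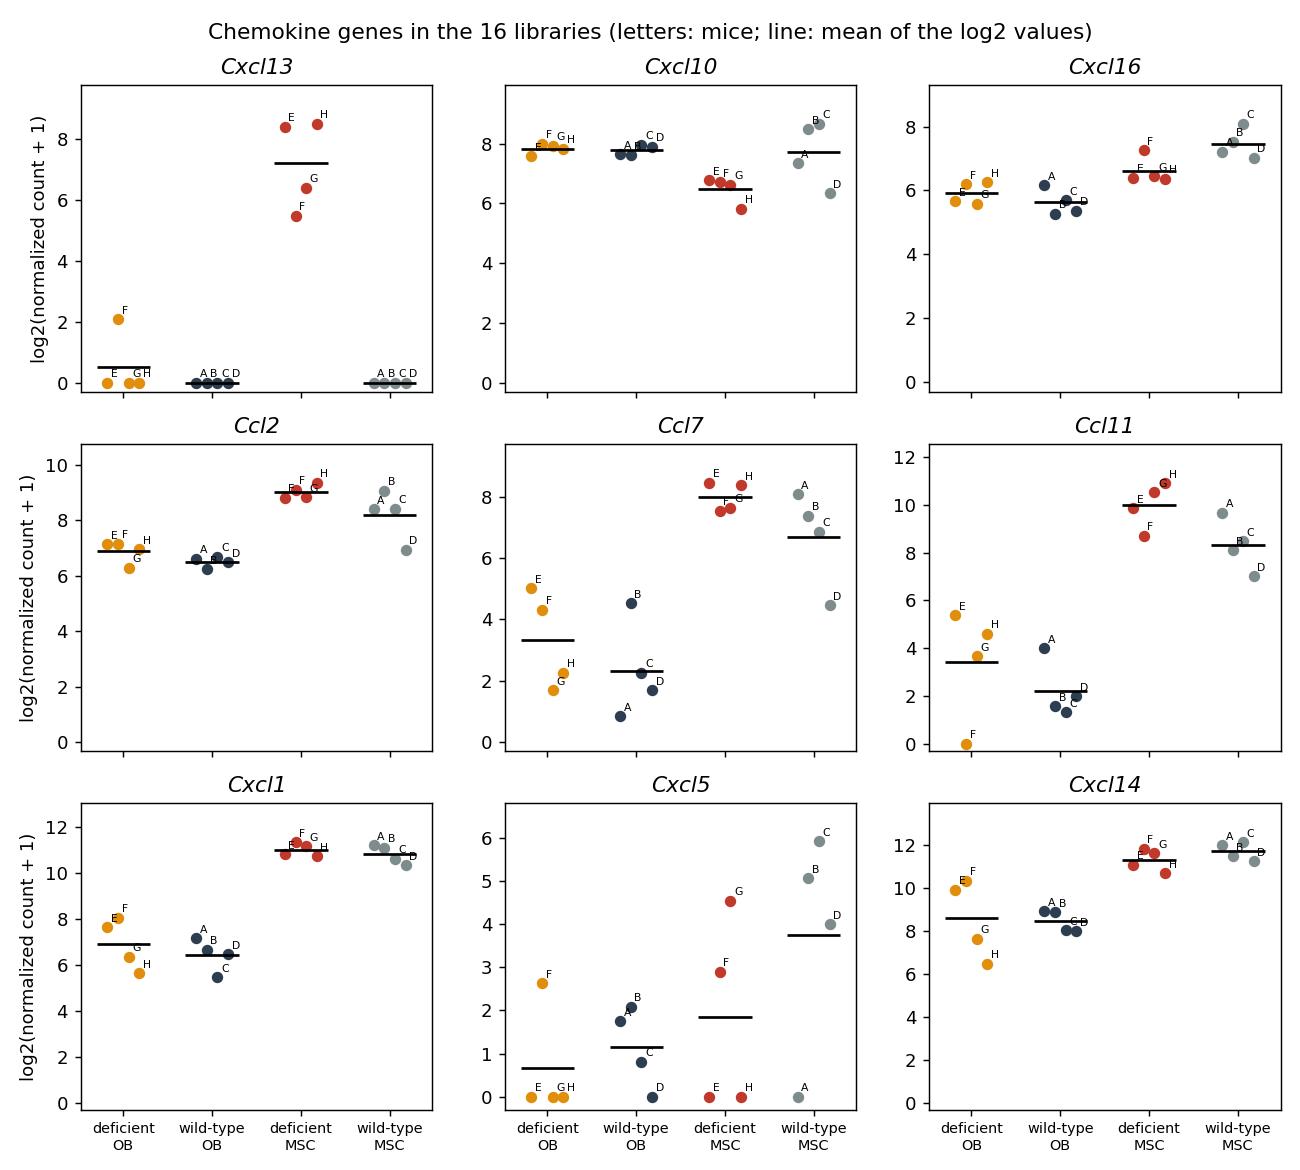
Level of each measured chemokine gene, as log2(normalized count + 1), in the 4 libraries of each group; letters are mice and lines are means of the log2 values. Cxcl13 lay above 0 in all 4 deficient MSC libraries and in 1 deficient OB library, and at 0 in every wild-type library. Cxcl1, Cxcl14 and Ccl11 lay lower in OB than in MSC libraries. Ccl7 was lower in OB by mean, with overlap in wild-type mice.

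The monocyte and eosinophil attractants Ccl2, Ccl7 and Ccl11 lie side by side on chromosome 11 and all had a higher mean in deficient MSC, but none passed. Ccl11 (chr11:82057823-82062955, plus strand), the eosinophil attractant eotaxin that acts through Ccr3, had 931, 419, 1491 and 1932 normalized counts in deficient MSC of mice E to H, against 813, 273, 358 and 129 in wild-type MSC of mice A to D. Mice E, G and H lay above every wild-type library, while F fell within the wild-type range, so the groups overlapped. Its mean was 1193 ± 659 in deficient and 393 ± 295 in wild-type MSC (SD, n = 4 each), a log2 fold change of 1.69 ± 0.55 (95% interval 0.49 to 2.89, limma adjusted p = 0.117). Without deficient mouse F it passed, at 2.12 with an adjusted p of 0.0184, and without G and H together it was 0.97 (adjusted p = 0.496). In the libraries with mainly Ddx3y, E and F stood at 931 and 419 against 813 in A, whereas in those with mainly Xist, G and H stood at 1491 and 1932 against 129 to 358 in B, C and D. Whether sex has a part in Ccl11 was not tested.

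Ccl2 (chr11:82035571-82037453, plus strand) encodes the main attractant of inflammatory monocytes through Ccr2. It had 450, 549, 455 and 650 normalized counts in deficient MSC of mice E to H, against 334, 533, 342 and 122 in wild-type MSC of mice A to D. The groups overlapped through wild-type mouse B, and D was the low library. The log2 fold change was 0.82 ± 0.37 (limma adjusted p = 0.213), and 0.40 without wild-type mouse D. Ccl7 (chr11:82045712-82047525, plus strand), a second ligand of Ccr2, had 354, 187, 201 and 335 normalized counts in deficient MSC, against 273, 167, 116 and 21.0 in wild-type MSC. Its log2 fold change was 1.31 ± 0.63 (adjusted p = 0.245), or 0.56 without wild-type mouse D.

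Wild-type mouse D was the lowest wild-type MSC library for 7 of the 8 ligands with any reads in that group, all except Cxcl5. Of the 11 marker lists, by mean log2 level, 5 were lowest in mouse D among wild-type MSC and 6 in mouse A. Mouse A was the lowest library for 1 ligand, Cxcl5, and the highest for 3. Macrophage and monocyte markers had a mean log2 level of 5.65 in mouse D, against 6.72 to 7.50 in the other 3. Neutrophil markers had 10.19 in D, against 11.4 to 12.3. The lists of T and NK cells, stroma and osteoblasts were lowest in D as well. Over the groups, the 16 macrophage and monocyte markers summed to 3506 to 5418 in deficient and 3096 to 8227 in wild-type MSC, with 0 of 14 tested passing either way. The marker Ms4a7 was at 0 in 3 deficient and 2 wild-type MSC libraries, and Fcgr1 in 1 of each. Their part in Ccl2, Ccl7 and Ccl11 was not tested.

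Cxcl10 and Cxcl16 had a lower mean in deficient MSC and also did not pass. Cxcl10 (chr5:92346638-92348889, minus strand) is an interferon-induced attractant of activated T and NK cells through Cxcr3. It had 108, 103, 98.0 and 55.5 normalized counts in deficient MSC of mice E to H, against 162, 357, 405 and 79.6 in wild-type MSC of mice A to D. The deficient libraries lay close together, while wild-type D fell within their range and B and C stood well above it. Its mean was 91.2 ± 24.1 in deficient and 251 ± 155 in wild-type MSC (SD, n = 4 each), a log2 fold change of -1.23 ± 0.48 (95% interval -2.28 to -0.18, limma adjusted p = 0.163). It passed in DESeq2 on the recovered reads, at -1.44 (adjusted p = 0.0317), and in a fit of all 16 libraries (adjusted p = 0.043).

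The interferon-response list, 21 genes tested without chemokines, had 0 genes passing in limma in either direction, 9 with an unadjusted p under 0.05, and a median log2 fold change of -0.67, against -0.03 over all genes. In 7 of the 21 the deficient libraries all lay below the wild-type ones, a pattern seen in 6.1% of all genes tested. The list was chosen with earlier results of these data known, so its counts are a description only. Oas2, an interferon-induced antiviral enzyme, had a log2 fold change of -1.98 ± 0.46 (adjusted p = 0.0608). Cxcl9, the neighbouring Cxcr3 ligand, averaged 43.3 ± 33.9 normalized counts in deficient and 176 ± 147 in wild-type MSC (log2 fold change -2.81 ± 1.18, adjusted p = 0.189).

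The Cxcl10 promoter is printed beside that of Cxcl13 to compare the letters of an interferon-induced ligand on the same chromosome. On GRCm38.p6 it lies at chr5:92348840-92349139, minus strand, with the interferon-stimulated and NF-kB matches in capitals.
Cxcl10 promoter: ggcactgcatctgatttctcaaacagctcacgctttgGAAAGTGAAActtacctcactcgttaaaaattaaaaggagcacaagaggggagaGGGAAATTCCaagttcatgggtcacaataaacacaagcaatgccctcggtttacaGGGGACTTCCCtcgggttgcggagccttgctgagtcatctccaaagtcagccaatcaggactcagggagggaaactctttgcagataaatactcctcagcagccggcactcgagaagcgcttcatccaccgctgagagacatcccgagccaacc
The interferon-stimulated match lay from -213 to -204, a motif in 3.44% of all promoters. The same motif was in 3 of the 5 promoters searched, the others being those of Cxcl14 (-172 to -163) and Ccl19 (-208 to -199). NF-kB matches began at -159, -104 and -103, of which those at -104 and -103 overlap, and 8.46% of promoters held one. An AP-1 match lay from -74 to -68, against 5.20% of promoters.

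Cxcl16 (chr11:70453983-70459984, minus strand) is made as a membrane-bound protein, also shed, and acts through Cxcr6 on T, NKT and plasma cells. It had 83.3, 152, 86.3 and 81.8 normalized counts in deficient MSC of mice E to H, against 147, 184, 271 and 129 in wild-type MSC of mice A to D. All but F lay below every wild-type library, and F lay within the wild-type range. The means were 101 ± 34.2 in deficient and 183 ± 63.2 in wild-type MSC (SD, n = 4 each), a log2 fold change of -0.84 ± 0.32 (limma adjusted p = 0.152). Without deficient mouse F it passed at -1.06 (adjusted p = 0.0415). Dendritic cells are known to make this ligand, and their 12 markers summed to 1268 to 2149 in deficient and 1853 to 8036 in wild-type MSC, with 0 of 10 tested passing and 9 of 10 negative. Of these markers, Xcr1 was at 0 in 3 wild-type MSC libraries. Their part in Cxcl16 and Cxcl10 was not tested.

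Neither the neutrophil attractants that act through Cxcr2, Cxcl1 and Cxcl5, nor Cxcl14 passed. Cxcl1 (chr5:90891241-90893115, plus strand) had 1774, 2568, 2269 and 1689 normalized counts in deficient MSC of mice E to H, against 2331, 2176, 1557 and 1270 in wild-type MSC of mice A to D. The ranges largely coincided, and the log2 fold change was 0.20 ± 0.21 (95% interval -0.26 to 0.66, limma adjusted p = 0.601). Cxcl14 (chr13:56288643-56296551, minus strand), a ligand made at rest by many tissues, had 2155, 3601, 3148 and 1626 normalized counts in deficient MSC, against 4044, 2834, 4451 and 2404 in wild-type MSC. These ranges also overlapped, with a log2 fold change of -0.41 ± 0.27 (95% interval -0.99 to 0.18, adjusted p = 0.383). Cxcl5 (chr5:90759360-90761624, plus strand) was scarce, at 0, 6.44, 22.2 and 0 normalized counts in deficient MSC and 0, 32.4, 59.4 and 15.03 in wild-type MSC. Several of these values lie near the limit of 3 reads, and its log2 fold change of -1.89 ± 1.53 (adjusted p = 0.488) was not distinguishable from 0 at this depth.

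The Cxcl1 promoter shows the NF-kB element of a ligand that was high in every MSC library of both genotypes (GRCm38.p6, chr5:90890995-90891294, plus strand, NF-kB matches in capitals).
Cxcl1 promoter: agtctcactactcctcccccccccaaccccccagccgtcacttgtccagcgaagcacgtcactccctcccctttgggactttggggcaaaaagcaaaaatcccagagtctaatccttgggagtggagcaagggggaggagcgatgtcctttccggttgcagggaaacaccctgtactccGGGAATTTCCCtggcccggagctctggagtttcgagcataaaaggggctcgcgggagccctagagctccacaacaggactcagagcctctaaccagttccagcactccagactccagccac
The capitals span an NF-kB match on either strand, from -71 to -62 and from -70 to -61, which overlap. NF-kB response genes other than chemokines did not pass in MSC: of 21 tested in limma 0 were higher and 0 lower, 5 had an unadjusted p under 0.05, and the median log2 fold change was 0.04. The smallest p belonged to Tnfaip2, a TNF-induced gene, at 0.66 ± 0.19 (adjusted p = 0.0911).

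**Figure D2:**
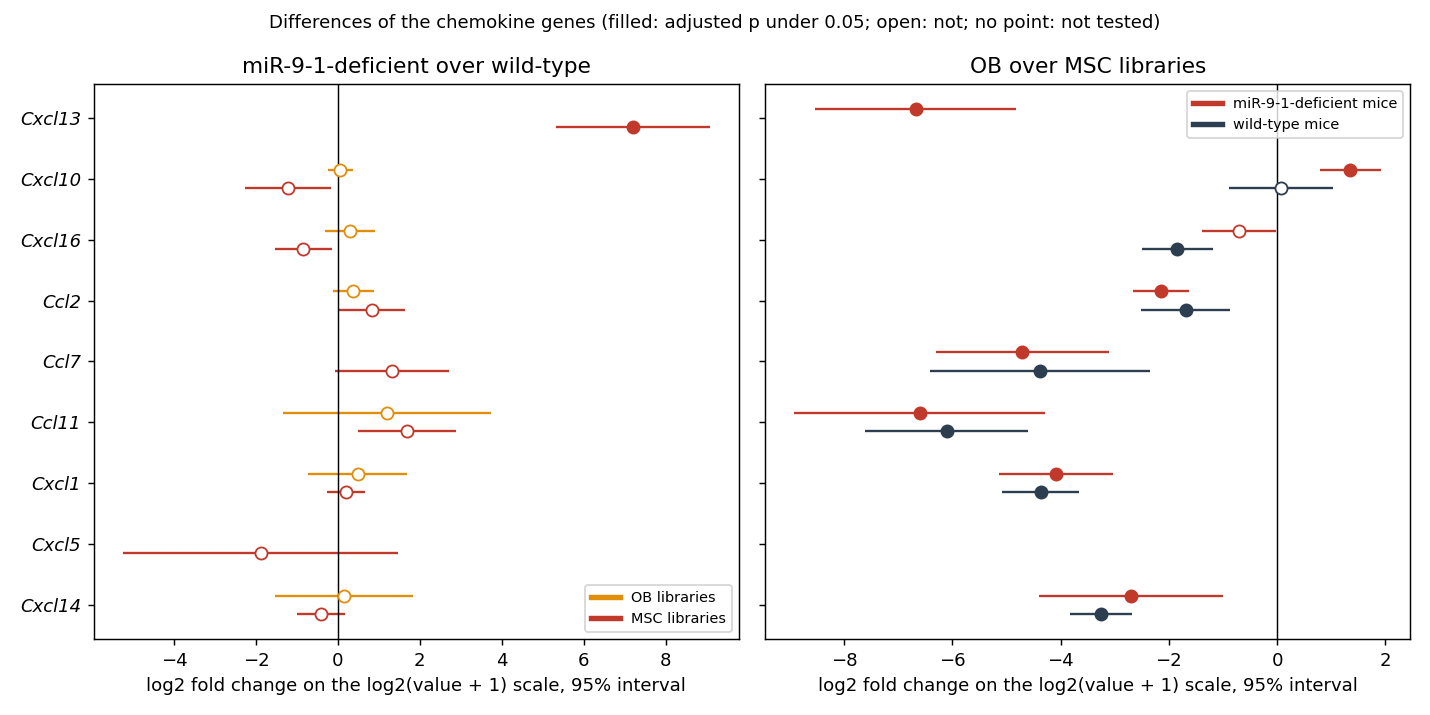
Log2 fold changes on the log2(value + 1) scale with 95% intervals, for deficient over wild-type libraries on the left and OB over MSC libraries on the right; filled points passed at a limma adjusted p under 0.05. On the left only Cxcl13 in MSC is filled, and its fold depends on the pseudocount of 1 since the wild-type libraries are at 0. On the right, 6 ligands are filled below 0 in either genotype, but not the same 6. Cxcl13 is among them only in deficient mice and Cxcl16 only in wild-type mice. Cxcl10 is filled above 0 in deficient mice (1.36) and open in wild-type mice (0.07).

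Other ligands and receptors gave the setting in MSC. Among 13 other chemokine ligands tested, 0 passed in limma, 2 had an unadjusted p under 0.05, and 11 of 13 log2 fold changes were negative. Of 14 chemokine receptors, 0 passed and 3 had an unadjusted p under 0.05. Of the receptors that pair with the ligands above, 3 were picked after their values were seen. Cxcr5, the receptor of Cxcl13, averaged 66.4 ± 17.8 normalized counts in deficient and 38.4 ± 11.6 in wild-type MSC (SD, n = 4 each, log2 fold change 0.78 ± 0.41, adjusted p = 0.285). Ccr2, which binds Ccl2 and Ccl7, averaged 91.3 ± 52.8 in deficient and 181 ± 51.0 in wild-type MSC (-1.15 ± 0.45, adjusted p = 0.163). Ackr2, the atypical receptor that scavenges inflammatory CC chemokines such as Ccl2, averaged 833 ± 391 in deficient and 404 ± 165 in wild-type MSC (1.03 ± 0.39, adjusted p = 0.156). None of these 3 receptors passed. For the receptors given above for the other measured ligands, means are in deficient and then wild-type MSC. They were 227 and 242 for Cxcr2, 5.13 and 10.3 for Cxcr3, 1.83 and 13.1 for Ccr3, and 0.97 and 11.1 for Cxcr6.

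Of 18 lymphoid stroma organizers tested in MSC, 0 passed in limma and 3 had an unadjusted p under 0.05. The smallest p belonged to Tnfrsf1b, a TNF receptor (log2 fold change 0.50 ± 0.19, adjusted p = 0.153). Of 16 glucocorticoid-induced genes tested, 7 were higher and 0 lower in deficient MSC, against 0.501% and 0.561% of all genes, with all 16 log2 fold changes positive and a median of 1.42. Like the other lists, this one was chosen with earlier results of these data known. Its counts therefore describe the list and are no independent support. Fkbp5, which encodes a chaperone partner that dampens steroid receptor signalling, averaged 3900 ± 3005 normalized counts in deficient and 455 ± 108 in wild-type MSC (SD, n = 4 each, log2 fold change 2.82 ± 0.42, adjusted p = 0.0253). The Cxcl13 and Cxcl10 promoter windows held no TGTTCT, found in 19.0% of promoters, whereas the Cxcl14 window held one from -193 to -188. Whether this list has a part in the chemokine levels was not tested.

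In OB libraries, none of the ligands passed the test of deficient against wild-type. Of the 6 that could be tested, 0 were higher and 0 lower in limma, none had an unadjusted p under 0.05, and edgeR and DESeq2 on the recovered reads also called 0. Over all 14229 genes tested, 0.0281% passed, with 0.0211% higher and 0.00703% lower in deficient OB. The 6 log2 fold changes were all positive, with a median of 0.34 against -0.02 over all genes, and every ligand's groups overlapped. Groups without overlap were found in 5.47% of all genes tested, 2.47% higher and 2.99% lower in deficient OB. Cxcl13, Cxcl5 and Ccl7 were too low to be tested.

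Cxcl13 was found in 1 OB library only, with 5 reads or 3.26 normalized counts in deficient mouse F, against 0 in every wild-type OB library, and both group means lie under the limit that 3 reads allow. Cxcl14 varied widely between libraries, with 964, 1279, 199 and 88.7 normalized counts in deficient OB of mice E to H, against 480, 464, 261 and 252 in wild-type OB of mice A to D. Deficient mice E and F were high and G and H low, on either side of the wild-type range. The log2 fold change was 0.15 ± 0.76 (95% interval -1.55 to 1.84, limma adjusted p = 0.969), and -1.38 without mice E and F.

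Cxcl1 followed the same order of mice, at 198, 263, 80.4 and 48.9 normalized counts in deficient OB, against 141, 99.5, 42.9 and 87.4 in wild-type OB. Its log2 fold change was 0.49 ± 0.54 (adjusted p = 0.809), turning to -0.44 without mice E and F. The mean log2 level of 14 stroma markers, Cxcl12 among them, was 10.7, 10.98, 10.1 and 9.12 in deficient OB of mice E to H and 9.66 to 10.1 in wild-type OB. E and F were thus high and H low for the markers as well. The markers summed to 19269 to 74360 in deficient and 27273 to 36421 in wild-type OB, with none at 0 in any library, and their part in Cxcl14 and Cxcl1 was not tested.

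Cxcl10 was the steadiest ligand in OB, at 190, 255, 244 and 227 normalized counts in deficient OB of mice E to H, against 200.3, 194, 249 and 237 in wild-type OB of mice A to D. The log2 fold change was 0.05 ± 0.14, and its 95% interval of -0.25 to 0.36 bounds a difference in either direction. Ccl2 averaged 121 ± 30.1 in deficient and 90.9 ± 12.1 in wild-type OB (SD, n = 4 each, log2 fold change 0.38 ± 0.22, adjusted p = 0.637), with 3 deficient libraries above every wild-type one. Cxcl16 averaged 61.1 ± 14.7 in deficient and 49.8 ± 14.97 in wild-type OB (0.30 ± 0.27, adjusted p = 0.762). Ccl11, with 40.4, 0, 11.7 and 23.3 in deficient OB and 14.9, 1.95, 1.51 and 2.94 in wild-type OB, lay near the limit of detection (1.196 ± 1.13, adjusted p = 0.775).

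**Figure D3:**
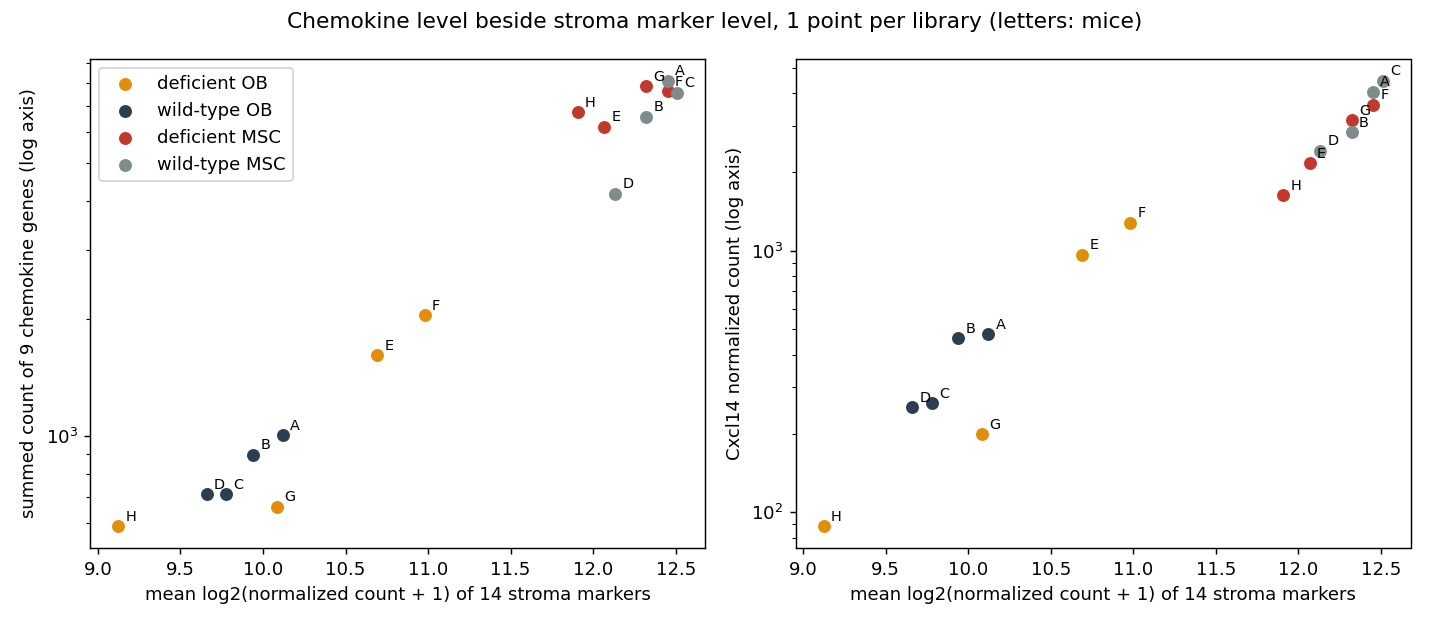
Summed normalized count of the 9 chemokine genes (left) and that of Cxcl14 (right), on log axes, against the mean log2 level of 14 stroma markers, 1 point per library with letters for mice. OB libraries lie at 9.12 to 10.98 on the marker axis and MSC libraries at 11.9 to 12.5; among deficient OB libraries, E and F have the higher Cxcl14 (964 and 1279) and the higher marker levels (10.7 and 10.98).

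Whether the genotype effect differs between the sorts was tested as an interaction over all 16 libraries. Of 9 ligands, 0 passed in limma, as in edgeR and DESeq2, and 3 had an unadjusted p under 0.05, while 0.0129% of 15556 genes passed, 0.00643% with a positive and 0.00643% with a negative difference. For Cxcl13 the difference of effects, OB minus MSC, was -6.67 ± 1.09 on the log2 scale (adjusted p = 0.0668). It passed with no filter on low values (adjusted p = 0.0195) and after quantile normalization (adjusted p = 0.047). Cxcl13 met the filter here only through its deficient MSC values, so these results describe these libraries and are no support for a difference. For Cxcl16 it was 1.14 ± 0.43 (adjusted p = 0.358) and for Cxcl10 1.28 ± 0.54 (adjusted p = 0.387). An effect on these ligands particular to MSC was therefore not shown.

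The sorts themselves differed far more than the genotypes. In deficient mice, 8 ligands could be tested between OB and MSC, of which 6 were lower and 1 higher in OB libraries, against 30.6% and 29% of 14692 genes and 59.6% in either direction. Their median log2 fold change was -3.39, against -0.02 over all genes. In wild-type mice 7 were tested and 6 were lower in OB libraries, against 35.5% of 14696 genes lower and 69.9% called in either direction. There the median was -3.25, against 0.01 over all genes. Groups without overlap made up 55.2% of all genes in deficient mice (28% higher and 27.1% lower in OB) and 65.5% in wild-type mice (32.6% higher and 32.9% lower). Among the ligands they were 8 of 8 in deficient mice (1 higher, 7 lower) and 5 of 7 in wild-type mice (all lower). The lower ones in deficient mice include Cxcl13 in either count and in the median. It met the filter through its MSC values alone and so had to differ, and it was not tested in wild-type mice. Marker levels differed between the sorts as well. Stroma markers summed to 19269 to 74360 in deficient OB against 196463 to 302382 in deficient MSC, and to 27273 to 36421 in wild-type OB against 195146 to 301429 in wild-type MSC. With 10 of 14 stroma markers lower in deficient and 12 of 14 in wild-type OB libraries, fewer stromal cells and less chemokine RNA per cell cannot be told apart. Neutrophil markers were also lower, in 9 of 12 tested in either genotype, with median log2 fold changes of -3.01 in deficient and -2.87 in wild-type mice. They summed to 10744 to 13758 in deficient OB against 32975 to 67376 in deficient MSC, and to 11321 to 32271 in wild-type OB against 30591 to 126191 in wild-type MSC, with none at 0. The part of stromal cells and neutrophils in the ligand levels was not tested.

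Ccl11 averaged 5.33 ± 6.43 normalized counts in wild-type OB and 393 ± 295 in wild-type MSC (SD, n = 4 each), and mouse A, at 14.9, carried most of the wild-type OB mean. Its log2 fold change was -6.60 ± 1.03 in deficient mice (limma adjusted p = 5.21e-04) and -6.11 ± 0.68 in wild-type mice (adjusted p = 1.35e-05), or -6.70 without the OB library of mouse A. Cxcl1 averaged 92.6 ± 40.2 in wild-type OB and 1834 ± 503 in wild-type MSC, with log2 fold changes of -4.08 ± 0.47 in deficient mice and -4.37 ± 0.32 in wild-type mice. In neither genotype did the 4 OB values of these genes reach the lowest MSC value.

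Cxcl14 had a log2 fold change of -2.70 ± 0.76 in deficient mice (adjusted p = 0.0122), a call lost without the MSC libraries of mice G and H (-2.85, adjusted p = 0.0617). In wild-type mice it was 364 ± 125 in OB and 3433 ± 971 in MSC, a log2 fold change of -3.25 ± 0.26 (adjusted p = 9.26e-07). Ccl7 was 7.22 ± 10.004 in wild-type OB and 144 ± 105 in wild-type MSC, with log2 fold changes of -4.70 ± 0.71 (adjusted p = 4.24e-04) in deficient and -4.38 ± 0.92 (adjusted p = 0.00141) in wild-type mice. In wild-type mice the Ccl7 groups overlapped, through 22.1 in the OB library of mouse B and 21.0 in the MSC library of mouse D.

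Ccl2 fell less, with log2 fold changes of -2.14 ± 0.23 in deficient mice (adjusted p = 7.3e-05) and -1.69 ± 0.38 in wild-type mice (adjusted p = 0.00207). For Cxcl16 in deficient mice the log2 fold change was -0.69 ± 0.31 (adjusted p = 0.0737), although all 4 OB values lay below all 4 MSC values. In wild-type mice it fell by 1.84 ± 0.30 on the log2 scale (adjusted p = 2.48e-04). Cxcl13 in deficient mice was at 0, 3.26, 0 and 0 in OB against 43.8 to 361 in MSC (-6.67 ± 0.83, adjusted p = 1.52e-04), a test it entered through its MSC values alone.

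Cxcl10 was the ligand that did not follow the others. In deficient mice it averaged 229 ± 28.8 normalized counts in OB and 91.2 ± 24.1 in MSC (SD, n = 4 each), and all 4 OB libraries lay above all 4 MSC libraries (log2 fold change 1.36 ± 0.25, adjusted p = 0.00138). It averaged 220.3 ± 27.1 in wild-type OB and 251 ± 155 in wild-type MSC (0.07 ± 0.43, 95% interval -0.89 to 1.03, adjusted p = 0.888). Of 22 interferon-response genes tested, 17 were higher and 2 lower in OB libraries of deficient mice, and 14 were higher and 3 lower in those of wild-type mice, where 29% and 34.4% of all genes were higher in OB libraries of deficient and wild-type mice. The guanylate-binding protein gene Gbp5 averaged 285 ± 55.0 in wild-type OB and 35.9 ± 18.7 in wild-type MSC (3.15 ± 0.44, adjusted p = 7.87e-05).

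Of 13 other chemokine ligands tested, 3 were higher and 2 lower in OB libraries of deficient mice, against 29% and 30.6% of all genes, and 2 were higher and 5 lower in those of wild-type mice, against 34.4% and 35.5%. These shares lie near or under those of all genes. Ccl9, a myeloid chemokine, averaged 1206 ± 73.6 normalized counts in wild-type OB and 188 ± 56.0 in wild-type MSC (log2 fold change 2.72 ± 0.18, limma adjusted p = 2.72e-07). Cxcl12, the niche factor that retains blood progenitors through Cxcr4, averaged 2973 ± 1419 in wild-type OB and 18354 ± 13225 in wild-type MSC (-2.52 ± 0.41, adjusted p = 2.69e-04). Of 15 receptors tested in wild-type mice, 4 were higher and 7 lower in OB libraries, also not far from the shares of all genes. Cxcr4 was higher (1.67 ± 0.16, adjusted p = 4.04e-06), while the scavenger receptors Ackr2 (-3.83 ± 0.34, adjusted p = 2.43e-06) and Ackr3 (-3.27 ± 0.21, adjusted p = 1.9e-07) were lower.

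Levels of different ligands can be set side by side only per kb of transcript, and all values here are mean normalized counts per kb with their SD over 4 libraries. By mean, deficient OB was led by Cxcl14 (346 ± 318) and Cxcl10 (169 ± 21.3), and wild-type OB by the same pair, Cxcl14 (199 ± 68.3) and Cxcl10 (163 ± 19.99). In neither group did the pair differ beyond its spread. Ccl2 and Cxcl1 came next, at 149 ± 37.0 and 155 ± 105 in deficient OB and at 112 ± 14.9 and 97.2 ± 42.2 in wild-type OB.

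In deficient MSC the order was Cxcl1 (2177 ± 437), Cxcl14 (1441 ± 494), Ccl11 (1103 ± 609), Ccl2 (647 ± 116), Ccl7 (336 ± 109), Cxcl13 (179 ± 144), Cxcl10 (67.4 ± 17.8), Cxcl16 (37.4 ± 12.7) and Cxcl5 (4.55 ± 6.66). In wild-type MSC, Cxcl1 (1924 ± 528) and Cxcl14 (1879 ± 531) led and did not differ beyond their spread. Ccl2 (409 ± 207) and Ccl11 (364 ± 273) followed, then Cxcl10 (186 ± 115) and Ccl7 (180 ± 131), with neighbours in either pair within one SD. Cxcl16 (67.8 ± 23.4), Cxcl5 (17.0 ± 16.2) and Cxcl13 (0) were the lowest there. Cxcl13 thus stood above Cxcl10 and Cxcl16 by mean in deficient MSC, though both lay within its SD of 144. In wild-type MSC it stood below every other ligand.

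**Figure D4:**
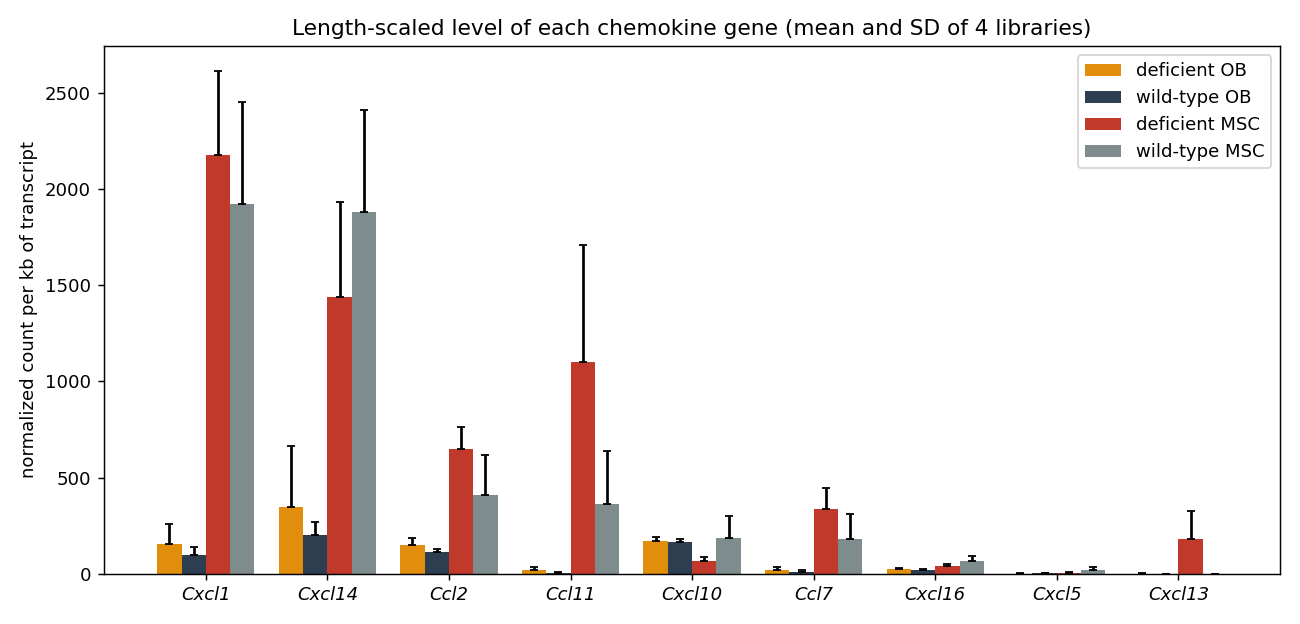
Mean normalized count per kb of transcript for each chemokine gene in the 4 groups, with bars showing the mean of 4 libraries and whiskers 1 SD upward. Cxcl1 and Cxcl14 lead in both MSC groups, Cxcl10 is near 163 to 186 per kb in all groups except deficient MSC (67.4), and Cxcl13 stands at 179 in deficient MSC and under 1 elsewhere.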

How the data were processed

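Poly(A) RNA libraries from sorted MSC and OB of 4 miR-9-1-deficient and 4 wild-type mice were used, 16 in all. The deposited values are a signal per gene, gene counts that the authors divided by size factors. DESeq2 1.24.0 and mm10 are named in the submitters' processing notes, and no aligner, counter or annotation is given by these sources. Dividing by the value of 1 read gave whole reads for 100% of values within a tolerance of 0.01. Depth per library ran from 15543693 to 18962771 reads for OB and from 10148197 to 14246986 for MSC. The 95% limit for a count of 0 is 3 reads, or 1.95 to 2.36 normalized counts in OB and 3.52 to 4.51 in MSC libraries, and it covers counting error only.

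Genes with a normalized count of 10 in 4 libraries of a comparison were tested as log2(value + 1) with limma 3.58.1 in R 4.3.3, with Benjamini-Hochberg adjustment over all genes, and the procedure was tested on simulated data. The alternatives were edgeR 4.0.16 and DESeq2 1.42.0 on the recovered reads, other pseudocounts and filters, quantile normalization, left-out libraries, a fit of all libraries, and the mouse as a block. In MSC, edgeR called 147 genes and DESeq2 1180, against 159 in limma. Libraries with the same animal number are of the same mouse by their labels. Their deviations correlated at 0.0241 to 0.285, and 7 of 8 libraries matched their own number best, although the sex transcripts do not match between the sorts. The p-values measure the spread between these libraries, and OB libraries are not shown to be single mice. Promoter, miRNA and UTR sequences are from RefSeq and GENCODE on GRCm38. Replicate pairs differed by 9.92 to 120 times the sampling noise, as chi-square per degree of freedom. From each list, at most 4 genes per direction with the largest change among those that passed with a mean of at least 50 normalized counts could be named, or 2 with the smallest p where none passed. Pairing receptors and cluster neighbours were named after their values were seen. The chemokines and lists were chosen with earlier results of these data known.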

Additional observations from a re-analysis of the deposited data

Results flagged for a closer look

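In 34 groups of 4 libraries, 1 library stood apart from the other 3 in 5 cases, by the gap to its nearest neighbour over the whole range (above Dixon's 95% critical value). Chance flags about 1 in 20 groups. Deficient mouse F was the high library in 3 cases, for Cxcl13 in OB (3.26 normalized counts), Cxcl5 in OB (5.21) and Cxcl16 in MSC (152). For Cxcl13 and Cxcl5 the other 3 libraries were at 0, so that any reads in the fourth would have flagged it. The other 2 were Ccl7 in the wild-type OB library of mouse B (22.1) and Ccl11 in the wild-type OB library of mouse A (14.9).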

How the results depend on the processing

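Of 674 single-gene values under alternatives, 632 kept direction and call, 7 lost the call, 7 gained it and 28 changed sign, none of the last with an adjusted p under 0.05 in limma as reported. In MSC, deficient against wild-type, the chemokines called were 0 with a filter of 50 (Cxcl13 was then not tested) and 0 without mice G and H, 2 in DESeq2 and 2 with all 16 libraries in one fit (Cxcl10 joining), and 0 to 2 on leaving out 1 library. All genes called there were 1180 in DESeq2, 0 without G and H, 2246 with all libraries, and 0 to 2261 on leaving out 1 library (2261 without deficient mouse F). The filter lowered for Cxcl13 was chosen after seeing the data.

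In OB libraries 0 chemokines were called throughout, and all genes called were 16 after quantile normalization, 191 in DESeq2, 88 without mice E and F, 24 with all libraries, and 3 to 108 on leaving out 1 library, against 4. Without mice E and F, Cxcl1 turned to -0.44 and Cxcl14 to -1.38. Leaving out 1 library gave -0.0025 to 0.14 for Cxcl10 and -0.43 to 0.85 for Cxcl14. For wild-type OB against MSC, Cxcl10 was -0.15 in edgeR, -0.18 in DESeq2 and -0.39 to 0.39 on leaving out 1 library. Quantile normalization split all calls into 4852 higher and 3949 lower, against 4261 and 4500, in deficient mice, and 5830 and 4496, against 5054 and 5217, in wild-type mice.

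For the difference of genotype effects, chemokines called were 1 with no filter and 1 after quantile normalization (Cxcl13 in both), and 0 on leaving out any 1 library. All genes called were 0 with a pseudocount of 5, 4 with no filter, 1 with a filter of 50, 1 in edgeR, 142 in DESeq2, 0 without OB of mice E and F, and 0 to 571 on leaving out 1 library, against 2. Ccl7 was 0.030 in edgeR, 0.054 in DESeq2 and -0.89 to 0.43 on leaving out 1 library. Ccl11 was 0.25 in edgeR, 0.23 in DESeq2, 0.23 without MSC of G and H, 0.23 without OB of E and F, and -1.15 to 0.64 on leaving out 1 library. Without OB of E and F, Cxcl1 was -0.64 and Cxcl14 -0.97, and leaving out 1 library gave -0.090 to 0.71 and -0.025 to 1.25. The cause of these changes was not tested. With the mouse as a replicate block, 7 chemokines were called between OB and MSC in deficient mice, 6 in wild-type mice and 0 for the difference (8978, 10216 and 3 genes in all), and no chemokine call changed.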

Other observations

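Genes next to these chemokines differed widely in level. Beside Ccl2, Ccl7 and Ccl11 on chromosome 11, Ccl12 was at 0 in all 8 MSC libraries, and Ccl8 averaged 3.43 normalized counts in deficient and 1.29 in wild-type MSC, at or under the limit of 3 reads. Beside Cxcl10 on chromosome 5, Cxcl11 was at 0 in deficient and averaged 1.39 in wild-type MSC, while Cxcl9 averaged 43.3 ± 33.9 in deficient and 176 ± 147 in wild-type MSC. Near Cxcl5, the platelet chemokine Ppbp averaged 345 ± 691 in deficient MSC, with 3 of 4 libraries at 0, and 175 ± 218 in wild-type MSC, and Pf4 averaged 87.0 ± 116 in deficient and 192 ± 257 in wild-type MSC. Next to Cxcl1, the neutrophil attractant Cxcl2 averaged 434 ± 144 in deficient and 590 ± 385 in wild-type MSC (SD, n = 4 each). Levels of the 9 chemokines summed to 590.02 to 2039 in deficient OB, 711 to 1007 in wild-type OB, 6192 to 7855 in deficient MSC and 4170 to 8105 in wild-type MSC, so the groups overlapped within each sort.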
